A study of Mus musculus with 10 samples.

Results

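Lysozymes and lysosomal cathepsins are the enzymes with which a phagocyte breaks down what it has taken up. The set described here has 10 genes of the 14623 in the deposited table: the lysozymes Lyz1 and Lyz2, the cathepsins Ctsb, Ctsd, Ctsl, Ctss, Ctsz and Ctsk, the legumain gene Lgmn, and Cst3, which encodes the cathepsin inhibitor cystatin C. The rule for the members is a list of names that holds no values, and it was drawn up with earlier results of these data known. They were counted in the stromal vascular fraction of inguinal white adipose tissue (iWAT), the mixture of precursor, vascular and immune cells that is left when digested fat is freed of its adipocytes. The cells came from a single global Bbs8 KO mouse (Bbs8-/-) and a single Bbs8 WT mouse (Bbs8+/+), both aged 7 weeks and lean, and no further treatment was given. Bbs8, also called Ttc8, encodes a subunit of the BBSome, the complex that sorts proteins in and out of the primary cilium.

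Transcripts were counted by Seq-Well S3, which pairs single cells with barcoded beads in small wells, reads each transcript near its 3' end and counts molecules by their UMI (unique molecular identifier). The KO mouse gave 8985 cells with 3144195 UMIs and a median of 251 UMIs per cell, and the WT mouse 1929 cells with 715989 UMIs and a median of 278. The cells carried 10 set codes, 5 per genotype, here called barcode sets, with 1635 to 2005 cells each in KO and 196 to 768 in WT. The series describes 1 mouse per genotype, so a barcode set is treated as a technical part of that mouse, although the numbers in its code are not explained, and no test between genotypes is given: intervals are exact 95% intervals that cover counting error only, and a difference between the genotypes cannot be told apart from a difference between the individual mice or their preparations. Of 10847 barcodes, 36 occurred in more than 1 set, and 4 of these lay in at least 7 sets and took up 37 cells. Ttc8 had 0 UMIs in KO, which allows up to 0.954 CPM (UMIs scaled to a total of 1000000), and 5 UMIs (6.98 CPM) in WT, all in 1 barcode set, so that this shallow check of the labels showed no conflict.

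Lysozyme cleaves bacterial cell walls. Mice carry a pair of lysozyme genes: Lyz2 is the classical gene of monocytes, macrophages and neutrophils, and Lyz1 is known chiefly from the Paneth cells of the intestine. Cathepsins B, L, S, Z and K are cysteine proteases, cathepsin D is an aspartic protease, and legumain cuts behind asparagine and processes other cathepsins in the lysosome. Cathepsin S trims the invariant chain in antigen-presenting cells, cathepsin K degrades collagen and is best known from the osteoclast, and cystatin C is secreted and blocks the cysteine cathepsins.

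Cells were clustered without the 10 genes among the variable features, and clusters were named from marker lists that hold none of them. This gave 669 macrophage-like cells (540 KO, 129 WT), 382 monocyte-like cells (267 KO, 115 WT) and 1709 KO and 752 WT stromal cells, made up of the adipocyte precursor classes P1-, P2- and P3-like and a marker-poor stromal cluster, beside lymphocyte, endothelial, pericyte and smaller clusters. A level is given in CPM of all UMIs in the class and is not divided by transcript length, so levels are compared between classes for 1 gene and not between genes.

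The members led in different classes. In both mice Lyz1, Lyz2 and Ctss were highest in the monocyte-like class, Ctsb, Ctsd and Lgmn in the macrophage-like class and Ctsk in the P3-like class. For the other members the leading class differed between the mice. With the mice summed, Ctsl was highest in the P1-like class, as in KO, but P3-like cells led in WT (1191 against 1069 CPM). Ctsz was highest in the monocyte-like class in the sum but in neither mouse. In KO it stood at 916 CPM there, beside 932 CPM in macrophage-like cells and 963 CPM in a small cluster led by Siglech, and in WT at 1501 CPM, below the 2829 CPM of dendritic-like cells, which rest on 6 UMIs. Cst3 was highest in the small dendritic-like cluster in the sum and in KO (5324 CPM), where the set KO5_p3 reached 12582 CPM and the others 1216 to 6090 CPM. Without KO5_p3 macrophage-like cells led, and without KO6_p1 monocyte-like cells. In WT the dendritic-like Cst3 level of 4715 CPM rested on 10 UMIs and lay below the 5857 CPM of macrophage-like cells and the 7988 CPM of the Siglech cluster, itself from 11 UMIs. The intervals and sets of the neighbours in these orders often overlap. Ctsl had 1125 CPM in P1-like and 1118 in P3-like cells, Ctsz 1070 in monocyte-like and 1025 in dendritic-like cells, and Ctsd 1296 in macrophage-like and 1064 in monocyte-like cells.

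**Figure D1:**
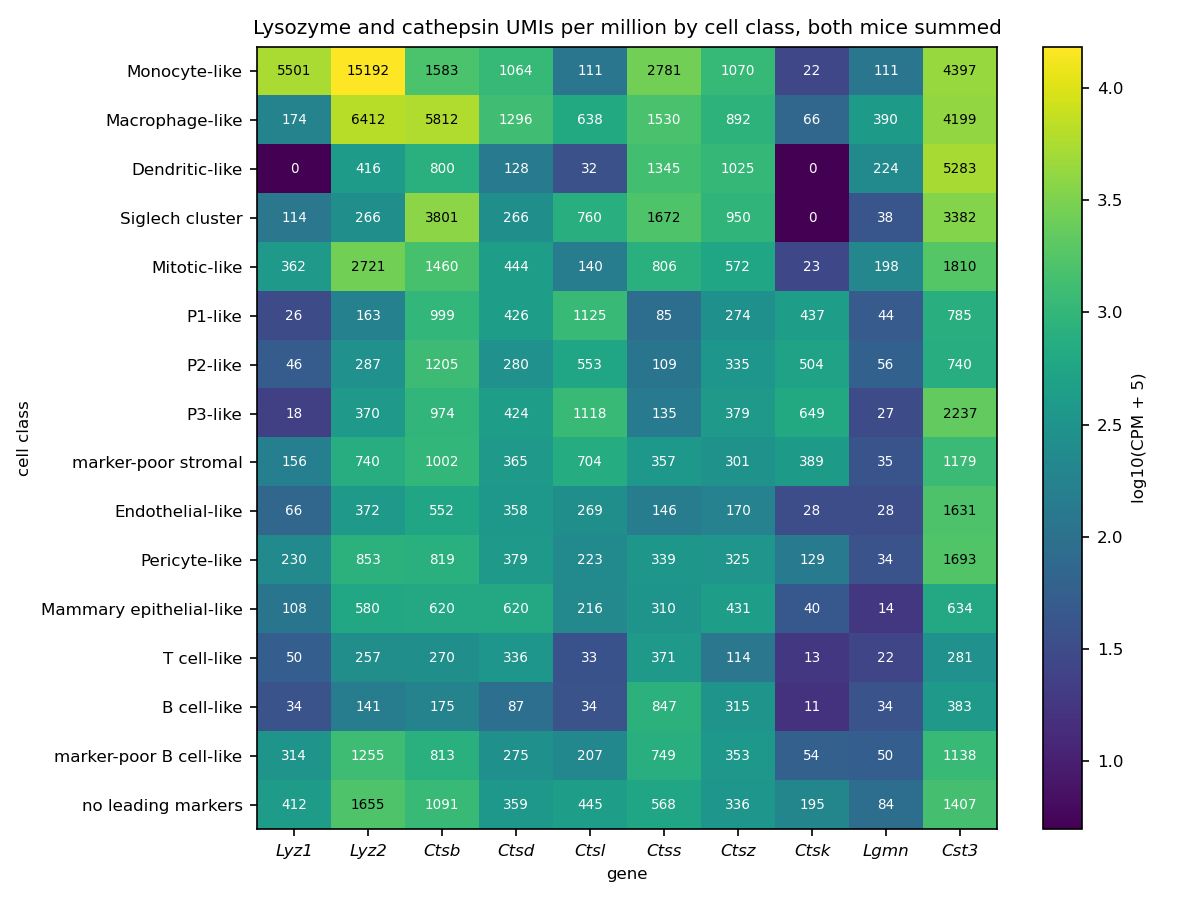
Level of each gene (columns) in each cell class (rows) with both mice summed; the colour is log10(CPM + 5) and the printed number is CPM. Lyz1 stands at 5501 CPM in the monocyte-like class and at no more than 412 CPM in any other class, and Ctsk is highest in the stromal classes, at 389 to 649 CPM.

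Lyz1 and Lyz2 lie side by side on the minus strand of chromosome 10 (GRCm38), Lyz2 at 117277331 to 117282321 and Lyz1 at 117287797 to 117292868, with 5475 bases between them. Both have 444 coding bases, which are 95% identical. Of the 1203 stretches of 61 bases, the length of the transcript read, in the Lyz1 transcript, 10.1% also occur in the Lyz2 transcript, and of the 440 stretches in its last 500 bases 50 do. Reads from such stretches cannot be assigned to 1 gene, so a small part of each lysozyme's count is uncertain.

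The lysozymes separated the monocyte-like from the macrophage-like cells. Of the 8 monocyte markers 6 were raised in the monocyte-like class, so its name is a loose one. Ly6c2 had 68.1 CPM there in KO and 106 CPM in WT, below the 156 and 152 CPM of T cell-like cells. Fcgr1 had 53 and 84.5 CPM, below the 162 and 173 CPM of macrophage-like cells. The macrophage list stood at 4579 and 6298 CPM, near the 5548 and 5770 CPM of the monocyte list. Lyz2 stood at 15192 CPM in monocyte-like and 6412 CPM in macrophage-like cells, whereas Lyz1 stood at 5501 CPM and 174 CPM. Lyz1 made up 26.6% of the lysozyme UMIs of monocyte-like cells (interval 25.2 to 28.0%) but 2.65% of those of macrophage-like cells (1.97 to 3.47%). The gap was present in both mice. In KO the share was 26.0% in monocyte-like and 2.86% in macrophage-like cells, and in WT it was 28.0% and 1.82%. Over the barcode sets the share ranged from 17.1 to 34.9% in monocyte-like cells and from 0 to 5.41% in macrophage-like cells, so that no set of either genotype overlapped. Lyz1 and Lyz2 were among the 10 leading genes of the monocyte-like cluster although neither was used to form it. Clusters are built from genes that vary with them, so the level is a description. Neutrophils, which also carry Lyz2, were hardly seen, since the 3 neutrophil markers in the table summed to 13.4 CPM over all KO cells and 2.79 CPM over all WT cells.

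Among monocyte-like cells Lyz1 was uneven. Of the 267 KO cells, 99 held UMIs of both lysozymes, 104 of Lyz2 alone, 4 of Lyz1 alone and 60 of neither. Of the 115 WT cells, 46 held both, 54 Lyz2 alone, 0 Lyz1 alone and 15 neither. The median cell had 0 Lyz1 UMIs in either mouse, while single cells reached 66 in KO and 55 in WT. Lyz1 UMIs were therefore found almost entirely in cells that also held Lyz2.

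Outside the myeloid classes the mixture of the lysozymes rested on fewer UMIs. Over all cells Lyz1 was 18.3% of lysozyme UMIs (17.5 to 19.1%). With both mice summed it was 16.4% in T cell-like cells (10.7 to 23.6%), 19.4% in B cell-like cells (10.4 to 31.4%), 20% in marker-poor B cell-like cells (16.4 to 24.0%), 14.9% in stromal cells (11.8 to 18.3%), 15.1% in endothelial-like cells (8.48 to 24.0%) and 21.2% in pericyte-like cells (15.2 to 28.4%), intervals that reach 18.3%, but 11.7% in mitotic-like cells (8.12 to 16.3%) and 4.65% in P3-like cells (0.568 to 15.8%). By mouse the shares spread more widely, with intervals that overlap. In T cell-like cells the share was 10.2% in KO (5 to 18.0%) and 31.0% in WT (17.6 to 47.1%), in stromal cells 16.3% in KO (12.8 to 20.3%) and 8.6% in WT (3.79 to 16.2%), and in endothelial-like cells 20.3% in KO (11.6 to 31.7%) and 0% of 24 UMIs in WT (up to 14.2%).

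With each cell thinned to 100 UMIs, Lyz2 was found in 38.0% of macrophage-like and 53.9% of monocyte-like KO cells, but in 1.59% of T cell-like KO cells (0.973 to 2.44%) and 1.14% of B cell-like KO cells (0.547 to 2.08%). Unthinned, these shares were 69.1, 76.0, 5 and 3.87%, at median depths of 307, 338, 253 and 298 UMIs. Lymphocytes are not known to make lysozyme, so the shares in their classes are read as background. In WT they were 4.8% in T cell-like (1.78 to 10.2%) and 0% in B cell-like cells (0 to 5.6%). The marker-poor B cell-like cluster is a mixture and gives no such background. Its macrophage list was at 1247 CPM in KO and 3158 CPM in WT, against 241 and 761 CPM in T cell-like cells, its stromal list was at 6196 and 13971 CPM and its B cell list at 6484 and 2088 CPM. Its Lyz2 shares were 8.75% in KO (7.03 to 10.7%) and 16.7% in WT (11.1 to 23.6%). The Lyz2 shares of KO cells were 1.12% in P1-like (0.305 to 2.84%), 4.21% in P2-like (2.69 to 6.25%), 8.14% in marker-poor stromal (6.19 to 10.5%), 5.43% in P3-like (2.21 to 10.9%) and 7.45% in pericyte-like cells (4.92 to 10.7%). The P1-like share lay at the KO background, the P3-like interval overlapped that of T cell-like cells, and the intervals of the other 3 lay above those of T and B cell-like cells. These 3 classes also held more of the macrophage list, at 499 CPM in P2-like, 1502 CPM in marker-poor stromal and 1159 CPM in pericyte-like KO cells, and the part of macrophage RNA in their Lyz2 was not tested. In WT the shares were 1.92% in P1-like, 0.741% in P2-like, 1.12% in P3-like, 1.69% in marker-poor stromal and 6.74% in pericyte-like cells (2.51 to 14.1%). The intervals of all 5 overlapped that of T cell-like cells, which is wide (1.78 to 10.2%). The WT T cell-like class was itself mixed, with the macrophage list at 761 CPM. This lies above the 93.6 to 337 CPM of the WT stromal classes and below the 1302 CPM of WT pericyte-like cells. The WT T cell-like share is therefore no clean background, and the overlap cannot place the 5 WT shares relative to one.

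**Figure D2:**
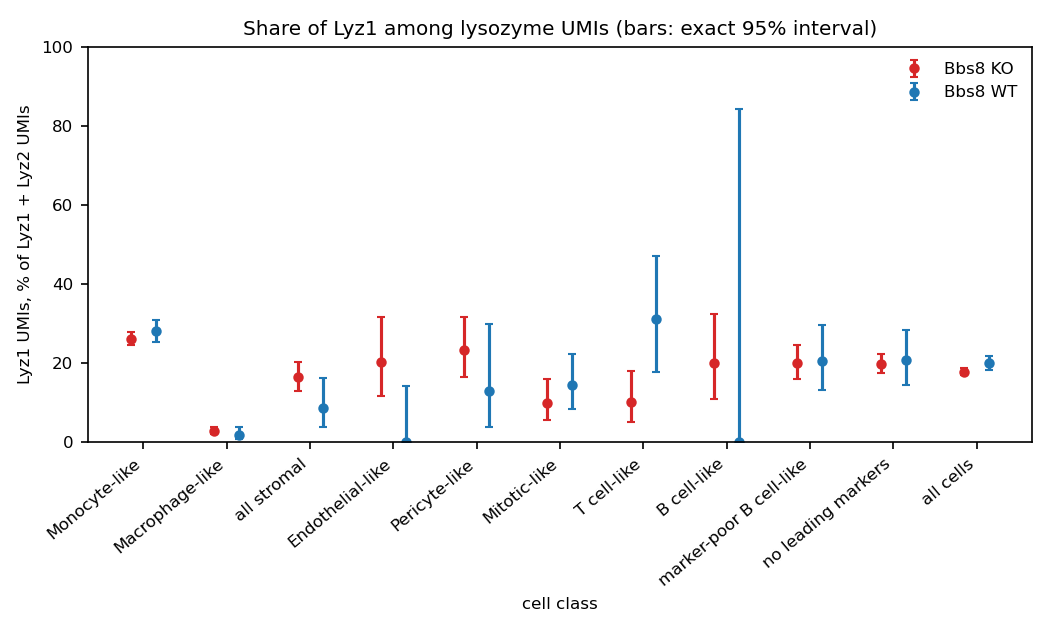
Lyz1 UMIs as a percentage of all Lyz1 and Lyz2 UMIs in each class, with exact 95% intervals, for the KO mouse (red) and the WT mouse (blue). The macrophage-like class lies at 2.86% (KO) and 1.82% (WT), below every other class with at least 100 lysozyme UMIs in the same mouse, and the monocyte-like class at 26.0% and 28.0%.

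Beside the myeloid classes, 2 smaller clusters held cathepsins without much lysozyme. The dendritic-like cluster (72 KO and 8 WT cells) had Cst3 at 5283 CPM, Ctss at 1345 CPM and Ctsz at 1025 CPM but Lyz2 at only 416 CPM, and 0 Lyz1 UMIs. A cluster of 58 KO and 3 WT cells led by Siglech, Irf8 and Runx2, which was left unnamed, had Ctsb at 3801 CPM, Cst3 at 3382 CPM, Ctss at 1672 CPM and Ctsl at 760 CPM. Its Lyz2 level was 266 CPM, near the 257 CPM of T cell-like cells. With 8 and 3 WT cells these clusters allowed no comparison of the genotypes.

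In KO, B cell-like cells carried more Ctss than T cell-like cells. Its level with both mice summed was 847 CPM in B cell-like and 371 CPM in T cell-like cells. By mouse it was 856 CPM (760 to 961) and 355 CPM (300 to 416) in KO. In WT it was 704 CPM (385 to 1180) and 578 CPM (348 to 903), from 14 and 19 UMIs, with intervals that overlapped. With cells thinned to 100 UMIs, 7.74% of B cell-like KO cells (6.06 to 9.72%) and 3.10% of T cell-like KO cells (2.21 to 4.21%) held a Ctss UMI, and in WT 9.38 and 5.6%. Ctsz followed in KO, in 3.64% of B cell-like cells (2.51 to 5.11%) and 1.11% of T cell-like cells (0.609 to 1.86%), while Ctsd ran the other way, in 0.342% and 3.18%.

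The stromal precursors carried Ctsl and Ctsk. Ctsb was present there, at 974 to 1205 CPM in the stromal classes, but stromal cells held a smaller share of its UMIs (22.1% in KO and 37.0% in WT) than of all UMIs (24.5 and 45.6%). Ctsl was also found elsewhere, and had 1125 CPM in P1-like and 1118 CPM in P3-like cells, but 638 CPM in macrophage-like cells, above the 553 CPM of P2-like cells. Ctsk had 437 CPM in P1-like, 504 CPM in P2-like and 649 CPM in P3-like cells, against 13.2 CPM in T cell-like and 66.2 CPM in macrophage-like cells. Of all Ctsk UMIs, 65.3% in KO and 85.4% in WT lay in stromal cells. For Ctsl these shares were 48.1 and 76.4%. Cst3 was also present in the stroma, at 2237 CPM in P3-like cells but 785 CPM in P1-like and 740 CPM in P2-like cells. In the vessel classes Cst3 had 1631 CPM (endothelial-like) and 1693 CPM (pericyte-like), values between those of P3-like and of P1-like cells. The pericyte-like class was mixed. Its endothelial list was at 6018 CPM in KO and 6212 CPM in WT, beside 5587 and 4910 CPM of the pericyte list. Its stromal list was at 11042 and 14396 CPM.

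The genes most like each member across the 16 classes were listed by the correlation of log2(CPM + 20) over 6222 genes, as a description without a test, since the points share libraries and clusters. Lyz2 was most like Retnla (r = 0.982), Fcrls (0.977) and Ccl9 (0.969), and Lyz1 most like Ear2 (0.909), Mcub (0.864) and again Retnla (0.851). Ear2 is also one of the markers that named the monocyte-like class. Ctsb was most like Grn (0.938), which encodes the lysosomal protein progranulin, Sirpa (0.916) and Hexa (0.915), a lysosomal hexosaminidase subunit. Among the genes most like Ctsd were Abhd12 (0.875) and the lysosomal acid lipase gene Lipa (0.842).

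Ctss was most like Cyba (0.938), a subunit of the phagocyte oxidase, Laptm5 (0.933) and Arhgef6 (0.932). Ctsz was most like Stx7 (0.885), Fcer1g (0.835) and Ifi30 (0.835), a lysosomal thiol reductase. Lgmn was most like Ftl1 (0.875), Cbr2 (0.834) and Apobec1 (0.834), and Cst3 most like Leprot (0.852), Skap2 (0.818) and Mvp (0.812). Ctsk was most like Lama2 (0.987), Dcn (0.986) and Spon1 (0.982), genes of the extracellular matrix, and Ctsl most like Lgals3bp (0.883), Rnase4 (0.882) and Selenon (0.876). Among the members themselves the closest pair was Lyz1 and Lyz2 (r = 0.84) and the most opposed pair Ctss and Ctsk (r = -0.70).

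Ctsk and Ctss are neighbours on the plus strand of chromosome 3, Ctsk at 95499256 to 95509362 and Ctss at 95526786 to 95556403, so that the most opposed pair by cell class lies side by side in the genome. The other members lie apart. Ctsb is on chromosome 14 (63122462 to 63145923), Ctsd on 7 (142375911 to 142388038), Ctsl on 13 (64359337 to 64370890) and Lgmn on 12 (102394084 to 102439813). Both Ctsz (174427493 to 174439039) and Cst3 (148871722 to 148875692) are on chromosome 2, all in GRCm38.

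Many lysosomal genes carry in their promoters the CACGTG core bound by the factors TFEB and TFE3. RefSeq promoter windows (GRCm38.p6, 250 bases before to 50 after each start) were at hand for 9 of the 10 members. The letters CACGTG, which read the same on both strands, were searched in the 250 bases before the start. They were found at 3 members, Ctsd, Ctsl and Lgmn, and in 6.02% of 32851 promoters in all. These windows are shown because they hold the core, which is in capitals, and its position is counted from the RefSeq start. The gene spans given above come from another annotation (GENCODE), and its starts differ. By those spans the windows of Ctsl, of Lgmn and of the Ctsd core at -98 lie inside the gene. Only the window of the Ctsd core at -245 lies before it.
Ctsd, core at -98, chr7:142387893-142387952, minus strand: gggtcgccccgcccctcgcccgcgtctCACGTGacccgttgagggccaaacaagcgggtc
Ctsd, core at -245, chr7:142388040-142388077, minus strand: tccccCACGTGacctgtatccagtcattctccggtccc
Ctsl, core at -236, chr13:64370724-64370770, minus strand: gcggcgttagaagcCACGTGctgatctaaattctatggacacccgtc
Lgmn, core at -49, chr12:102439109-102439168, minus strand: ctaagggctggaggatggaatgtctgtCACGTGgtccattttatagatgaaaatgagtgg
Ctsd holds 2 such cores, each followed by AC. A match is a description of these letters and not of binding. The second motif searched, GAGGAA or TTCCTC, was found at Cst3, Ctsk and Ctss and in 23.3% of all promoters.

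The comparison of the genotypes asks whether the lysosomal enzymes of the fat's macrophages, monocytes and stromal cells differed without BBS8. A gene was compared in a class when it had at least 50 UMIs there over both mice. Ratios are log2 of KO over WT CPM, each with 5 CPM added, and their intervals are of the plain ratio of counts.

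In macrophage-like cells 9 members were compared, and Cst3 and Lgmn were lower in KO by at least 1.5-fold while no member was that much higher. Of all 782 genes compared there, 12.1% were lower and 18.9% higher by that much. The median log2 ratio of the members was 0.18, beside 0.02 over all genes. The cells were macrophage-like by all 9 listed macrophage markers in both mice, yet the summed level of this list was also lower in KO, at 22149 against 27538 CPM (sets 19219 to 23920 and 25407 to 33841). The T cell list was higher in KO at 779 against 192 CPM (sets 584 to 1063 and 0 to 421) and the B cell list at 1924 against 941 CPM (sets 1447 to 2408 and 341 to 1167). Their part in the members' ratios was not tested.

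Cst3 in macrophage-like cells had 3326, 3925, 4167, 4131 and 3421 CPM in the KO sets and 5896, 6647, 4091, 4994 and 7225 CPM in the WT sets. The WT set at 4091 CPM, which held only 2933 UMIs in this class, lay within the KO sets and the other WT sets lay above all KO sets. The sums were 3831 CPM (3585 to 4090) in KO and 5857 CPM (5218 to 6553) in WT, a log2 ratio of -0.61 (-0.80 to -0.42). The ratio stayed below 0 but passed 1.5-fold in only 14 of 24 alternative settings of the processing, and not with the library scaling of edgeR (TMM, -0.47) or DESeq2 (-0.44), with at least 200 genes per cell (-0.45) or cells called one by one from markers (-0.43), nor without the WT set WT4_p3 (-0.50).

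Lgmn had 381, 334, 347, 327 and 359 CPM in the KO sets and 281, 967, 682, 560 and 487 CPM in the WT sets. The WT sets spread widely on both sides of the KO sets. The sums were 349 CPM from 82 UMIs and 576 CPM from 30 UMIs, a log2 ratio of -0.71 (-1.34 to -0.07), which passed 1.5-fold in 17 of 24 alternatives. It was -0.57 with TMM scaling, -0.11 with cells called one by one from markers and 0.30 in the sets ending in p1 alone.

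Lyz2 had 5713, 5262, 7119, 6074 and 6357 CPM in the KO sets and 3790, 7614, 9887, 7608 and 7712 CPM in the WT sets. Of the WT sets, 4 lay above and the fifth below all KO sets. The log2 ratio was -0.22 (-0.38 to -0.05), under 1.5-fold. For Ctsb, the ratio was 0.18 (-0.01 to 0.37), with 5939 CPM in KO and 5243 CPM in WT, and its KO sets (4900 to 6677 CPM) and WT sets (4621 to 6478 CPM) covered nearly the same range. The 5 members Lyz1, Ctsd, Ctsl, Ctss and Ctsz had ratios from -0.30 to 0.43 with intervals that reached 0. Each of the 5 changed sign in some alternative. Over all alternatives Lyz1 ranged from -1.26 to 5.21, Ctsl from -0.44 to 2.74, Ctsd from -0.74 to 1.09, Ctss from -0.19 to 0.48 and Ctsz from -0.01 to 0.90. Ctsk had 14 and 5 UMIs in this class and was not compared.

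In monocyte-like cells 7 members were compared, and all had a ratio below 0, beside 49.9% of 387 genes, with a median of -0.21 beside 0.00. Lyz2 was above 0 with TMM scaling (0.01) and DESeq2 size factors (0.05), under which the other 6 stayed below 0. Ctsb was above 0 with cells called one by one from markers (0.48), without integration (0.18), with the members among the variable features (0.16) and in the sets ending in p2 (0.12) and p3 (0.05), and Ctss in those ending in p1 (0.05) and p2 (0.06). Ctsd (0.37) and Cst3 (1.00) were above 0 in the sets ending in p1, and Lyz1 (0.03) without the set WT4_p2. Ctsz alone stayed below 0 in every alternative. Ctsd and Ctsz were lower in KO by at least 1.5-fold, as were 12.4% of all genes, and 0 members were that much higher, beside 14.7% of all genes. The lists of other cell types differed here too. The macrophage list was at 4579 CPM in KO and 6298 CPM in WT (sets 3743 to 5920 and 4707 to 7641), the monocyte list itself at 5548 and 5770 CPM, and the mitotic list at 318 and 930 CPM (sets 174 to 616 and 281 to 2151). Of the 15 lists, 2 had all KO sets above all WT sets. These were the B cell list at 1082 and 402 CPM (sets 955 to 1445 and 0 to 618) and the dendritic list at 242 and 42.3 CPM (sets 131 to 394 and 0 to 130). Their part in the ratios was not tested.

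Ctsz in monocyte-like cells had 1027, 914, 753, 1124 and 854 CPM in the KO sets and 1009, 1332, 1146, 1798 and 1689 CPM in the WT sets. Of the WT sets 4 lay above every KO set, and the fifth lay within them. The sums were 916 CPM (760 to 1094) and 1501 CPM (1172 to 1893), a log2 ratio of -0.71 (-1.15 to -0.27). It passed 1.5-fold in 19 of 24 alternatives and was -0.53 without the WT set WT4_p2 and -0.42 in the sets ending in p1 alone.

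Ctsd had 1027, 435, 868, 1450 and 788 CPM in the KO sets and 672, 3073, 1474, 1180 and 779 CPM in the WT sets. The sets of the genotypes overlapped widely, and a single WT set was far above the others. The log2 ratio was -0.69 (-1.13 to -0.25), and without that set (WT3_p2) it was -0.22.

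The lysozymes of monocyte-like cells differed by less than 1.5-fold between the mice. Lyz1 had 3560 to 7585 CPM in the KO sets and 3637 to 8679 CPM in the WT sets, a log2 ratio of -0.23 (-0.43 to -0.03), which was 0.03 without the set WT4_p2. Lyz2 had 11953 to 19209 CPM and 13250 to 18503 CPM, a log2 ratio of -0.09 (-0.21 to 0.04). The ratios of Ctsb, Ctss and Cst3 lay between -0.21 and -0.15 with intervals that reached 0, and Ctsl, Ctsk and Lgmn had too few UMIs.

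**Figure D3:**
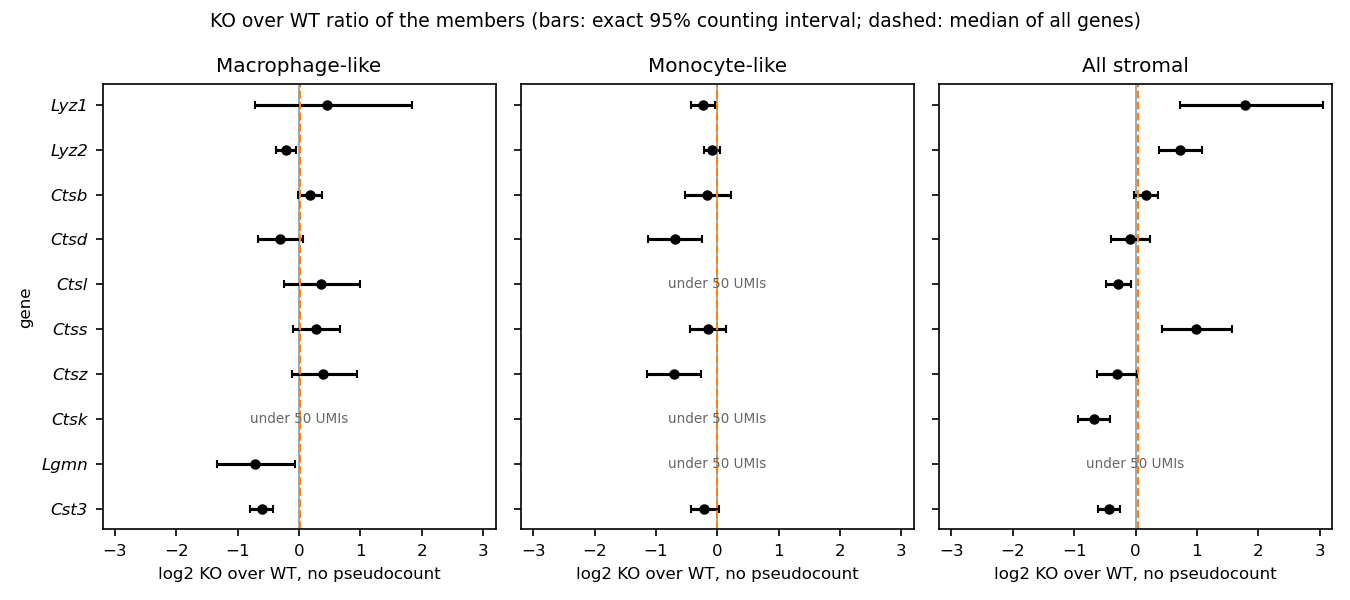
Ratio of KO over WT CPM on the log2 scale (no pseudocount) for each gene with at least 50 UMIs in macrophage-like, monocyte-like and all stromal cells, with exact 95% counting intervals; the dashed line is the median of all genes compared. Cst3 lies below 0 in all 3 panels, and in the monocyte-like class its interval reaches 0 and its ratio was 1.00 in the sets ending in p1 alone.

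**Figure D4:**
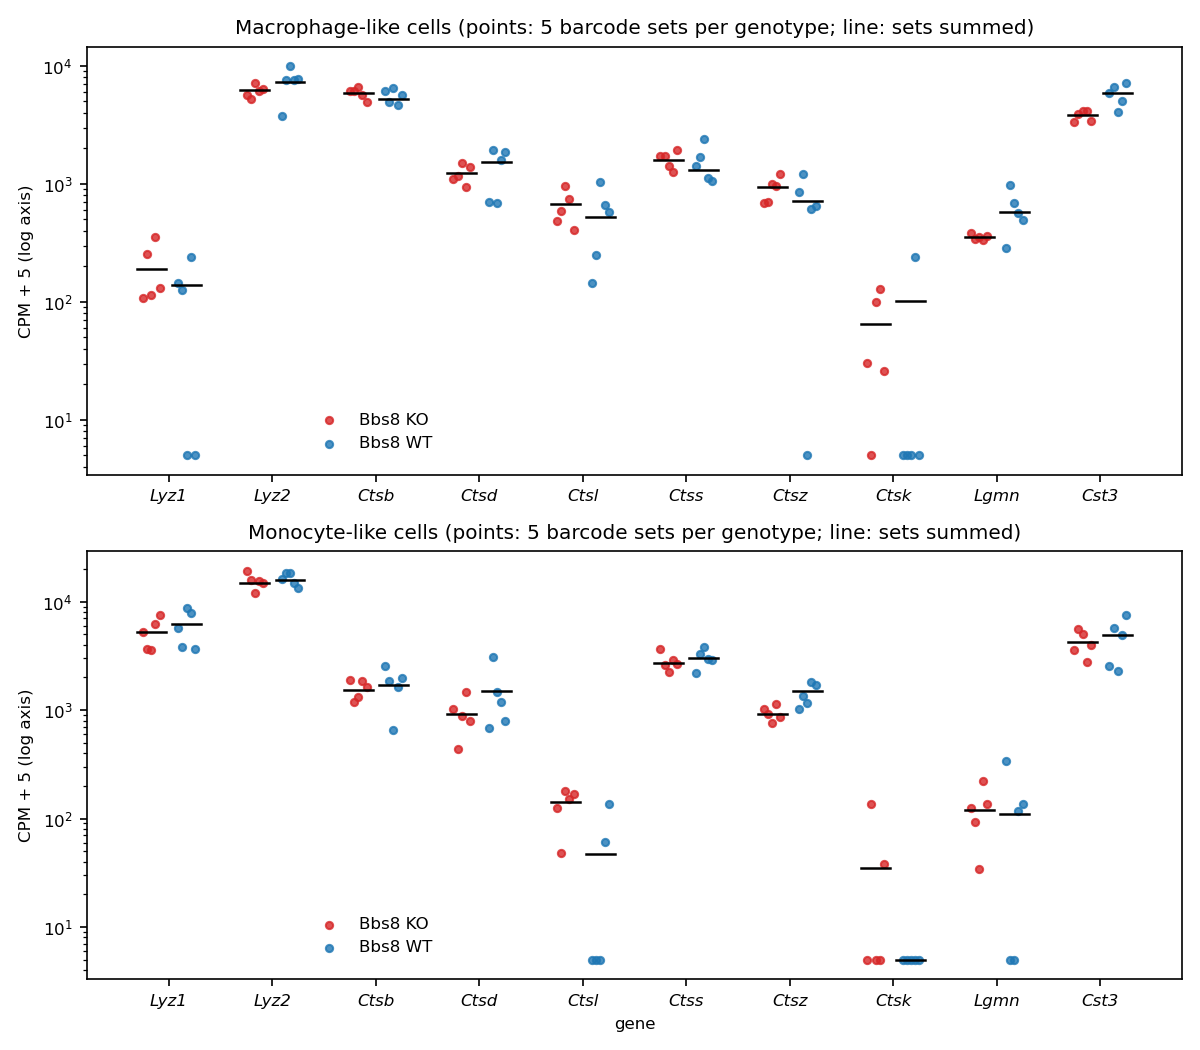
CPM + 5 on a log axis for each gene in macrophage-like (top) and monocyte-like cells (bottom); points are the 5 barcode sets of the KO mouse (red) and the WT mouse (blue) and lines the sum of the sets. In macrophage-like cells the KO sets of Cst3 lie at 3326 to 4167 CPM and 4 of the 5 WT sets lie above them.

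In stromal cells, Ctsk was the member that separated the mice. Its level was 453, 462, 411, 424 and 300 CPM in the KO sets and 641, 497, 642, 742 and 566 CPM in the WT sets. Every KO set lay below every WT set, as for 2.69% of 3645 genes. The sums were 400 CPM (357 to 448) and 643 CPM (559 to 736), a log2 ratio of -0.68 (-0.94 to -0.42), and 9.38% of all genes were lower in KO by 1.5-fold or more. Of the 9 members compared, Ctsk alone was lower by that much, and the median of the 9 was -0.09, beside 0.04 over all genes.

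The Ctsk ratio was below 0 in each of the 4 stromal classes. In P1-like cells Ctsk had 430 CPM in KO and 455 CPM in WT, a log2 ratio of -0.08 (-0.67 to 0.54). The ratio was -0.68 in P2-like cells (-1.09 to -0.28), -0.86 in P3-like cells (-1.58 to -0.16) and -1.01 in the marker-poor stromal cluster (-1.59 to -0.45). The difference between the classes was not tested, the intervals of all 4 overlap, and within each class the sets of the mice overlap. The summed stromal marker list was lower in KO over all stromal cells, at 70307 against 84411 CPM (sets 63863 to 75346 and 77621 to 94866), and so were the P2 list at 9484 against 12763 CPM and the P3 list at 1982 against 3136 CPM, while the P1 list was higher, at 5188 against 4357 CPM. In the marker-poor cluster the stromal marker list was at 44075 against 84287 CPM. Their part in the Ctsk ratio was not tested. In P1-, P2- and P3-like cells alone, a comparison added after the values were seen, the Ctsk ratio was -0.58. The ratio in all stromal cells passed 1.5-fold in 21 of 25 alternatives and was -0.52 without the WT set WT4_p2.

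Cst3 was lower in the KO stroma as well, by less than 1.5-fold. It had 967, 819, 915, 913 and 957 CPM in the KO sets and 1150, 1118, 642, 1454 and 1254 CPM in the WT sets, so that 4 WT sets lay above and 1 lay below all KO sets. The log2 ratio was -0.43 (-0.61 to -0.26). In endothelial-like cells Cst3 had 1137, 1223, 1438, 1478 and 1604 CPM in the KO sets and 2310, 2500, 3764, 2260 and 1914 CPM in the WT sets, so that all KO sets lay below all WT sets, as for 2.23% of 582 genes, while 0 members lay above, beside 4.12% of genes. The sums there were 1413 and 2438 CPM, a log2 ratio of -0.78 (-1.12 to -0.45). Of the 5 members compared in this class, Lyz2 (-0.68) and Ctsd (-0.58) were lower by 1.5-fold as well, beside 12.9% of all genes, and Ctsb was higher (0.76), beside 19.8%, with intervals that reached 0 and sets that overlapped. The Lyz2 ratio depends on a single WT set, WT3_p3, at 2689 CPM. The other WT sets lay at 0 to 625 CPM, beside 47.4 to 633 CPM in the KO sets. The endothelial marker list was at 18716 and 18109 CPM, but other lists moved in these cells. The B cell list was at 1186 in KO and 133 CPM in WT (sets 711 to 1553 and 0 to 220), the dendritic list at 276 and 111 CPM (sets 190 to 432 and 0 to 179), the P2 list at 14500 and 18840 CPM (sets 12912 to 16395 and 16828 to 20472) and the pericyte list at 982 and 1928 CPM (sets 694 to 1618 and 1178 to 2310). Their part in the Cst3 ratio was not tested.

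Ctsl was slightly lower in KO over all stromal cells, at 743 against 900 CPM (log2 ratio -0.27, -0.48 to -0.07). Its ratio was 0.10 in P1-like and -0.15 in P3-like cells but -0.73 (-1.15 to -0.30) in the marker-poor stromal cluster, where its KO sets lay below all WT sets, as for 5.96% of 688 genes, and the stromal marker list itself had a ratio of -0.94. In that cluster 2 of the 8 members compared were lower by 1.5-fold or more, beside 27.5% of all genes, and 2 were higher, beside 22.5%, and 0 members had all KO sets above all WT sets, beside 5.52%. Ctsb had 1115 against 992 CPM (0.17, -0.02 to 0.36), Ctsd 346 against 367 CPM (-0.09) and Ctsz 295 against 364 CPM (-0.30, -0.63 to 0.03). Lgmn had 38 and 11 UMIs and was not compared.

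The phagocyte genes Lyz1, Lyz2 and Ctss were higher in the KO stroma by more than 1.5-fold, as were 15.8% of all genes. Lyz2 had 353, 365, 516, 302 and 545 CPM in the KO sets and 487, 186, 33.8, 363 and 80.9 CPM in the WT sets, with overlap. All KO sets lay above all WT sets for 4.14% of genes and for 0 members. The log2 ratio was 0.72 (0.39 to 1.09), and those of Lyz1, with 65 and 8 UMIs, and Ctss were 1.60 and 0.94. Over 25 alternatives the ratio of Lyz2 passed 1.5-fold in 17 and those of Lyz1 and Ctss in 24 each. The Lyz2 ratio was 0.55 with TMM scaling, 0.46 without the WT set WT4_p3 and 0.08 and 0.05 in the sets ending in p1 and p2. All 9 macrophage markers were detected in the stromal cells of both mice and their sum was higher in KO, at 693 against 239 CPM (sets 438 to 1064 and 67.6 to 352). The T cell list was higher too, at 603 against 138 CPM, the B cell list at 1036 against 263 CPM and the mitotic list at 240 against 30.6 CPM, but the monocyte list was not, at 376 against 404 CPM. In the marker-poor stromal cluster the macrophage list had 1502 CPM in KO (sets 1027 to 1737) and 337 CPM in WT (sets 0 to 850). The part of these cell types' RNA in the ratios was not tested.

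**Figure D5:**
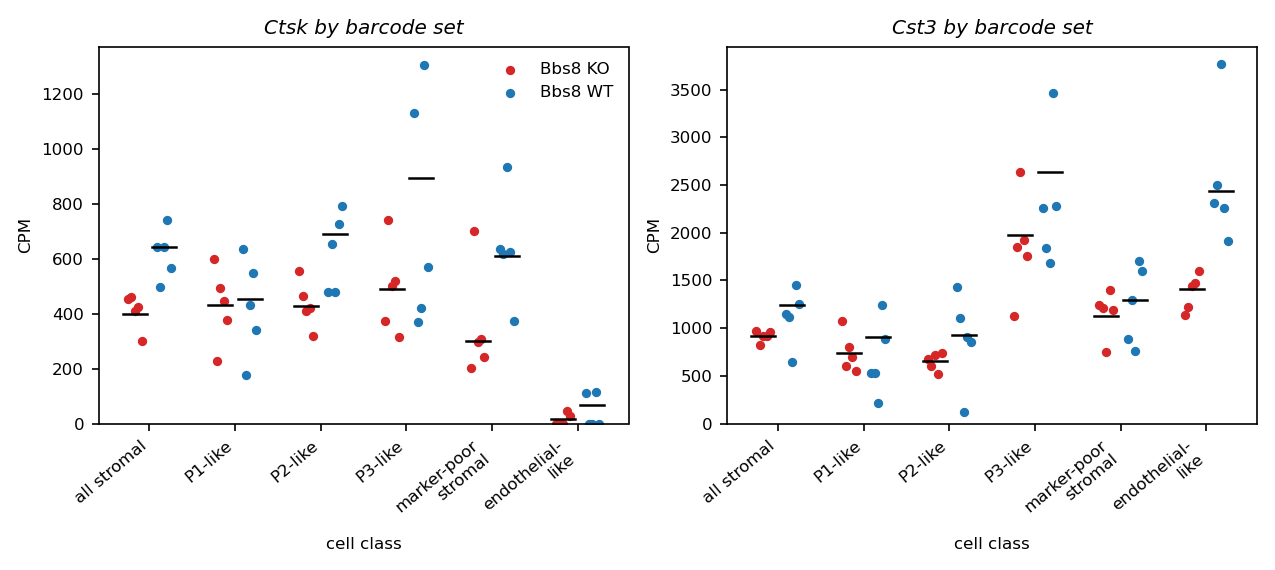
CPM of Ctsk (left) and Cst3 (right) in all stromal cells, in each stromal class and in endothelial-like cells; points are the 5 barcode sets per mouse (KO red, WT blue) and lines the sum of the sets. In all stromal cells the KO sets of Ctsk lie at 300 to 462 CPM, below the WT sets at 497 to 742 CPM, and the Cst3 sets separate in the endothelial-like class.

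Over all cells of the fraction, which mixes the levels with the makeup of the cells, Ctsk had 150 CPM in KO and 344 CPM in WT, a log2 ratio of -1.17 (-1.42 to -0.97), and Cst3 1332 and 1992 CPM (-0.58, -0.67 to -0.49). In both, all KO sets lay below all WT sets, as for 4.92% of 8776 genes. By 1.5-fold, 1 of the 10 members (Ctsk) was lower, beside 10.6% of genes, and 0 were higher, beside 26.6%. Stromal cells were 19.0% of the KO cells and 39.0% of the WT cells, T cell-like cells 14 and 6.48%, and B cell-like cells 9.77 and 3.32%. Ctss ran the other way, at 652 against 527 CPM (0.31, 0.15 to 0.47), with every KO set above every WT set, as for 11.5% of genes, while it was at 1579 and 1306 CPM in macrophage-like and 2702 and 3001 CPM in monocyte-like cells. Fewer cells of a type and less RNA per cell cannot be told apart in such sums.

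The other genes of the lysosome, a list of 62 of which 60 were in the table, gave a background for the members. In macrophage-like cells 20 of them had at least 50 UMIs, and 1 was lower and 1 higher in KO by 1.5-fold, with a median of -0.13, beside 12.1% lower and 18.9% higher of all genes. The lowest were Cd63 (-1.14, 319 against 711 CPM), a tetraspanin of lysosomes and exosomes, Laptm5 (-0.54) and Hexa (-0.46), and the highest Gusb (0.64), encoding beta-glucuronidase, Scarb2 (0.46), the carrier of glucocerebrosidase, and Gm2a (0.29). For Cd63 every KO set lay below every WT set, as for 1.41% of the 782 genes, and for 2.94% the sets lay the other way round. For the members the sets of the genotypes overlapped in every case, in macrophage-like and in monocyte-like cells.

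In monocyte-like cells 13 were compared, 3 lower and 1 higher, with a median of -0.18, beside 12.4% lower and 14.7% higher of all genes. Those lower were Laptm5 (-0.96, 1226 against 2388 CPM), whose KO sets lay below all WT sets, as for 1.29% of genes (and above them for 2.84%), Fuca1 (-0.86) and Ctsh (-0.71), and the one higher was M6pr (0.76, -0.28 to 2.00), which encodes a mannose-6-phosphate receptor that carries enzymes to the lysosome. In stromal cells 32 were compared, 3 lower and 2 higher, with a median of -0.01, beside 9.38% lower and 15.8% higher of all genes, so that the 3 lower are about the share of all genes. Cd63 was again the lowest, at 573 against 1167 CPM (-1.02, -1.23 to -0.82), and its KO sets again lay below all WT sets. Acp2 (-0.98) and Scarb2 (-0.61) were also lower, and those higher were Asah1 (0.83, -0.04 to 2.01), the acid ceramidase gene, and Atp6v1a (0.80, -0.05 to 1.92), a subunit of the proton pump. The genes named for monocyte-like and stromal cells were chosen after their values were seen.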

How the data were processed

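Single-cell counts of the iWAT stromal vascular fraction of 1 Bbs8 KO and 1 Bbs8 WT mouse were used. The deposited table holds raw UMI counts, with genes in rows and cells in columns. Per the submitters' processing notes, the authors used bcl2fastq 2.20, STAR on mm10 and Seurat. Per the methods, the reads were counted with dropSeqPipe, sequencing depth was evened out with scuttle and cells were filtered by genes and mitochondrial share. Whether the deposited counts precede the depth step is not given in the sources used here. Evening out removes UMIs, so levels of low genes rest on fewer counts.

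Per the labels there are 5 samples per genotype. The set codes match no single one of these labels, the numbers in them are not explained, and 0 columns were left unmapped. If the numbers stand for animals, the ranges over sets also hold differences between mice. Columns were grouped by genotype.

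Sets were integrated in Seurat 5.3.0 (R 4.3.3) with 2000 features without the 10 members, 30 dimensions and resolution 0.8, and clusters under 60 cells were left out. A cluster was named when at least 3 markers of a list were raised and their mean log2 fold over the other cells reached 1.5, and called marker-poor from 1. These limits were set after the clusters were seen. The Siglech cluster, whose list score was that of monocytes, was left unnamed because of its leading genes. Largest of all was a cluster of 2264 KO and 223 WT cells with no leading markers. Doublets were scored by scrublet in scanpy 1.11.5, which called fewer than 0.5% of cells and was judged not to have worked, so none were removed.

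UMIs were summed per class and genotype, and ratios of CPM with 5 CPM added were taken without a test, since there is 1 mouse per genotype. A gene at 0 has a floor of 3 counts. Intervals (Poisson, binomial and conditional, SciPy 1.17.1) have a level of 95% and cover counting error only. The functions were tested on simulated data. All members are named. Of the other lysosomal genes, the 3 highest and 3 lowest in macrophage-like cells are named, and the 3 most alike per member, except 1 gene for Ctsd that is not reported here. The members and lists were chosen with earlier results of these data known. Positions came from a GENCODE annotation and RefSeq windows of GRCm38.

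Overlapping genes in the annotation were Fdft1 and Gm47123 and Nelfcd on the opposite strand of Ctsb, Ctsl and Ctsz, and the gene models Gm49369, Gm49230 and Hmgb1-ps5 on the strand of Ctsd, Ctsl and Ctss, so reads there are uncertain.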

Additional observations from a re-analysis of the deposited data

Results flagged for a closer look

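Groups of 5 barcode sets were examined for the members with at least 50 UMIs in a class, per mouse. The classes were macrophage-, monocyte-, P2- and P3-like, marker-poor stromal, all stromal, endothelial-like and T cell-like cells, and P1-like cells were not examined alone. Of 110 groups, 4 had a set far from the others by Dixon's limit. Chance gives about 5.5 such groups, or 1 in 20, if groups are independent and values normally spread. The stromal groups share cells, so this number is rough. Ctsk in marker-poor stromal KO cells was at 700 CPM in the set KO5_p3 and at 203 to 306 CPM in the other sets. Lyz2 in endothelial-like WT cells was at 2689 CPM in the set WT3_p3 and at 0 to 625 CPM in the others. In T cell-like WT cells, Ctsb was at 2254 CPM in the set WT3_p3 and at 0 to 239 CPM in the others, and Ctsz at 232 CPM in the set WT4_p3 and at 0 in the others. The WT sets of T cell-like cells held as few as 1437 UMIs.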

How the results depend on the processing

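No paired analysis was possible because the columns of the table carry set codes that match no labelled replicate, and each genotype is 1 mouse. With 1 mouse per genotype, no alternative changes a test. TMM scaling moved log2 ratios by about 0.14 in macrophage-like, 0.10 in monocyte-like and -0.18 in stromal cells, and DESeq2 size factors by 0.17, 0.13 and -0.19. Over all alternatives, Cst3 in macrophage-like cells lay between -0.86 and -0.43, Ctsz in monocyte-like cells between -0.82 and -0.42 and Ctsk in stromal cells between -0.88 and -0.52, so that each kept its direction while its 1.5-fold call ended in 10 of 24, 5 of 24 and 4 of 25 alternatives. The comparisons of sets with the same ending (p1, p2 or p3) and of P1-, P2- and P3-like cells alone were added after seeing the data.

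The median ratio of the members in macrophage-like cells was -0.34 in the p3 sets alone. With the p1 sets alone, which hold 1 set per mouse, the ratios of Lyz2 (0.91), Lgmn (0.30) and Ctsd (1.09) in macrophage-like cells changed sign. Those of Ctsd (0.37) and Cst3 (1.00) in monocyte-like cells did so too. Of these, only Lgmn in macrophage-like and Ctsd in monocyte-like cells had passed 1.5-fold with all sets. Lyz1 in monocyte-like cells was at 0.00 in the p3 sets and at 0.03 without the set WT4_p2, and Ctsl in stromal cells at 0.12 in the p2 sets. The cause was not tested. Without single sets, the ratio of Ctsd in monocyte-like cells ranged from -0.93 to -0.22 and that of Lyz1 from -0.43 to 0.03. In the stroma, with at least 200 genes per cell the ratio of Ctss was 2.00, and the ratio of Lyz2 in the p3 sets was 2.73.

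Of the other lysosomal genes lower in KO, a limit of 20 UMIs gave 3 of 36 in macrophage-like, 6 of 28 in monocyte-like and 6 of 51 in stromal cells. Of all genes 16, 17 and 9.39% were lower at that limit. A limit of 200 UMIs gave 0 of 8, 1 of 4 and 1 of 12, beside 7.81, 10.6 and 9.13% of all genes. Of those higher in KO, the first limit gave 5, 4 and 4, beside 27.2, 23.2 and 25.4% of all genes. The second gave 0, 0 and 0, beside 10.9, 9.09 and 10.2%. The limit changes the genes tested. At least 7 of the 10 members kept their leading class under each alternative run, and the class changed most often for Ctsl and Cst3. Depth limits Lgmn and Ctsk most, with 247 and 472 UMIs in KO and 60 and 246 in WT.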
